A study of Mus musculus with 12 samples.

Results

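The genes described here encode nuclear-encoded subunits of the respiratory chain, and they were chosen by a rule on gene names. That rule was set with earlier results of these data known. A probe set belonged if its single gene symbol began with Ndufa, Ndufb, Ndufc, Ndufs or Ndufv and a digit, with Uqcr, with Cox followed by 4 to 8 and a letter a to c, or with Atp5, or if it was Sdha, Sdhb, Sdhc or Sdhd. In each tissue the brightest of a gene's probe sets stood for the gene. This gave 77 of the 17097 genes measured, of which 32 belong to complex I, 4 to complex II, 7 to complex III, 17 to complex IV and 17 to complex V. All 77 had a value on every array, and no filter on low values was applied. Among them, Ndufs5-ps is the entry of a pseudogene whose probes may also match its parent gene, and Cox7a2l encodes a factor that joins complexes III and IV into supercomplexes rather than a core subunit. Ndufa4 and Ndufa4l2, named after complex I, were counted with complex IV, where their products are now placed.

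The study asked why the newborns of mothers without the bile salt export pump, which is encoded by Abcb11 and moves bile acids from hepatocytes into bile, die after birth. All mice were C57BL/6. Livers came from 3 Abcb11-/- and 3 WT female mice aged 1.5 months. Lungs came from fetuses at embryonic day 17.5 (E17.5) and embryonic day 18.5 (E18.5) and from neonates at day 0 (N0), with 1 array for each stage and mother. The offspring were Abcb11+/- in every lung group, from Abcb11-/- mothers mated with WT fathers or from WT mothers mated with Abcb11-/- fathers, and although several animals per stage are stated for the lung expression work at E18.5 and at birth, their relation to the 1 array of each lung group is not. Total RNA was hybridised to a 1-colour oligonucleotide array, and every value below is a log2 intensity, so that a difference of 1 is a doubling. A single array per lung group leaves no replicate check within a group.

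Abcb11 read 2.90, 3.14 and 3.26 in Abcb11-/- livers against 11.22, 11.04 and 10.88 in WT livers, in keeping with the labels. The liver marker Alb, which encodes albumin, lay between 13.80 and 13.84 on all liver arrays, and Sftpc, the surfactant protein of type II cells, between 13.23 and 13.39 on all lung arrays. The lung array of the Abcb11-/- mother at E17.5 stood apart. It carried hepatocyte transcripts (Alb 13.01, against 9.05 with the WT mother) and skeletal muscle transcripts (Acta1 10.60, against 4.73). On that array 10 of 10 hepatocyte markers and 14 of 17 skeletal muscle markers were at least 1.5-fold higher than with the WT mother (against 3.47% of all genes). The median log2 differences of these lists were 4.91 and 3.31. For the interval between E17.5 and E18.5, the main values are therefore also given from the WT mother's arrays alone.

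The respiratory chain sits in the inner mitochondrial membrane. Complex I takes electrons from NADH and complex II from succinate, complex III passes them to cytochrome c, complex IV hands them to oxygen, and complex V uses the proton gradient that results to make ATP. Most subunits are encoded in the nucleus, and a core of catalytic ones in mitochondrial DNA, which was not analysed here. Several complex IV subunits exist as a widespread form and a form restricted to heart and skeletal muscle, testis or other tissues, and such pairs set the enzyme's properties in a tissue.

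Promoter windows in the RefSeq table (build GRCm38.p6, 250 bases before to 50 after a transcription start) were found for 63 of the 77 genes, 5 of them with more than 1 window. Motifs of factors known for respiratory chain genes were searched on both strands. The ETS core CCGGAAG, the kind of site that GABPA (nuclear respiratory factor 2) binds, stood in 15 of the genes' 68 windows (22.1%), against 8.86% of all 32851 windows. The NRF1 core TGCGCA stood in 17 (25%), against 7.76%, and the YY1 core AAGATGG in 11 (16.2%), against 6.34%. For comparison, the E-box CANNTG was found in 66.2% of the genes' windows and in 72.3% of all, and the hypoxia element core ACGTG in 26.5% and 19.6%. Hits overlapped between the NRF1 core and the E-box in 3 of the genes' windows and between ACGTG and the E-box in 7, and no ETS hit overlapped another motif there. Of the 64 windows of the other genes 23.4% held the ETS core and 26.6% the NRF1 core, and of the 4 restricted forms with a window (Cox6b2, Cox7a1, Cox7b2 and Cox8b) 0 held either, too few windows to compare. A match is a run of letters and not a binding site.

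Printed as examples are 4 promoters of widely expressed genes, chosen because they hold the ETS or the NRF1 core, and those of 2 muscle forms. Each runs from 220 bases before to 30 bases after the start, 5′ to 3′ on the gene's strand. Capitals mark every ETS core (CTTCCGG when read on the opposite strand), NRF1 core and E-box in all 6. They are Ndufa5 of complex I (chr6:24527497-24527746, minus strand, the first of 2 windows, NRF1 core at -191), Sdhd of complex II (chr9:50603820-50604069, minus strand, ETS core at -46 and NRF1 cores at -189 and -80), Cox6a1 of complex IV (chr5:115348929-115349178, minus strand, ETS core at -16 and NRF1 core at -118), Cox8a of complex IV (chr19:7217587-7217836, minus strand, ETS core at -5 and E-box at -102), and the muscle forms Cox8b (chr7:140900417-140900666, minus strand, E-boxes at -19 and 17) and Cox7a1 (chr7:30183951-30184200, plus strand, E-box at -124). Positions are those of the first base of the match, relative to the start.
Ndufa5: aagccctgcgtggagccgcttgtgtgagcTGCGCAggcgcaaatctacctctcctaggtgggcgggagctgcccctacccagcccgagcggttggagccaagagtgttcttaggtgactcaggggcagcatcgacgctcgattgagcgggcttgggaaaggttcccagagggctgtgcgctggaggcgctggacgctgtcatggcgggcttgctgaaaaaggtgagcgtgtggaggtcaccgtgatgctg
Sdhd: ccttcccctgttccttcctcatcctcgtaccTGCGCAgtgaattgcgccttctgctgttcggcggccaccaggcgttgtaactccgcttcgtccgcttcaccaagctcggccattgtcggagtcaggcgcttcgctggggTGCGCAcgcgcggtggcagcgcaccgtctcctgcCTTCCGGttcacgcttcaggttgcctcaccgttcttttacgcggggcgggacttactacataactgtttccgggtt
Cox6a1: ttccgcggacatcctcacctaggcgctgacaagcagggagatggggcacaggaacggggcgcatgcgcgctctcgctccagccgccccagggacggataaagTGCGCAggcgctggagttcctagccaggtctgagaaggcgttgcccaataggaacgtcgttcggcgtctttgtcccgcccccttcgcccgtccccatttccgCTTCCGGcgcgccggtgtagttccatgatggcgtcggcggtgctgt
Cox8a: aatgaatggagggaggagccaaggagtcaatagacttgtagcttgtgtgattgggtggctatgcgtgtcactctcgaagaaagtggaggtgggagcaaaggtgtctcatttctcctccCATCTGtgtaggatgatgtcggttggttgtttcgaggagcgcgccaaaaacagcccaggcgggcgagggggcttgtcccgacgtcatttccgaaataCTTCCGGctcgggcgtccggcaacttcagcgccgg
Cox8b: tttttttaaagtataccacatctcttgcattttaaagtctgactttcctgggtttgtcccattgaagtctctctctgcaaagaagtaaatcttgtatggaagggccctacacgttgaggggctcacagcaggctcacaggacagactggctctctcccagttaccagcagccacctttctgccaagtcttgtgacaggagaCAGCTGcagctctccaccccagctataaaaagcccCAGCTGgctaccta
Cox7a1: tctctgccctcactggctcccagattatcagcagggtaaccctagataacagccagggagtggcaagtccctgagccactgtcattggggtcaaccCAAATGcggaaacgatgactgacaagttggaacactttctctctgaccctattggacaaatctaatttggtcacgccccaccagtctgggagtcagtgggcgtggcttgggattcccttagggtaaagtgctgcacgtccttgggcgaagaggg

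In the liver, transcripts of the respiratory chain lay slightly higher in Abcb11-/- than in WT mice in all 5 complexes, but no gene passed an adjusted p of 0.05 (0 of 77 in limma, where 4.33% of all genes were called higher and 2.91% lower). The mean was higher in Abcb11-/- livers for 69 of the 77 genes (89.6%, against 50.8% of all genes) and lower for 7 (against 48.5%). At an unadjusted p under 0.05, 15 genes were higher (19.5%, against 12% of all genes) and 0 were lower (against 9.61%). For 40 genes all 3 Abcb11-/- values lay above all 3 WT values (51.9%, against 13.8% of all genes), and for 2 genes all lay below (2.6%, against 12.1%). The differences were small, with a median of 0.11 on the log2 scale against 0.0033 over all genes and 0.0070 over the 1127 genes of similar brightness (mean log2 value of 10 or more), and they ranged between -0.19 for Cox6a2 and 0.34 for Ndufa5. In whole livers, more mitochondrial transcript per cell and a different share of cell types cannot be told apart.

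The shift showed in each animal. The median deviation of the 77 genes from their own mean over the 6 livers was 0.055, 0.052 and 0.063 in the Abcb11-/- livers and -0.072, -0.058 and -0.058 in the WT livers. The mean was 0.057 ± 0.006 in Abcb11-/- livers and -0.063 ± 0.008 in WT livers (SD, n = 3 each), and the genotypes did not overlap. The genes are not independent of one another, and 3 animals against 3 cannot give an exact permutation p below 0.1.

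**Figure D1:**
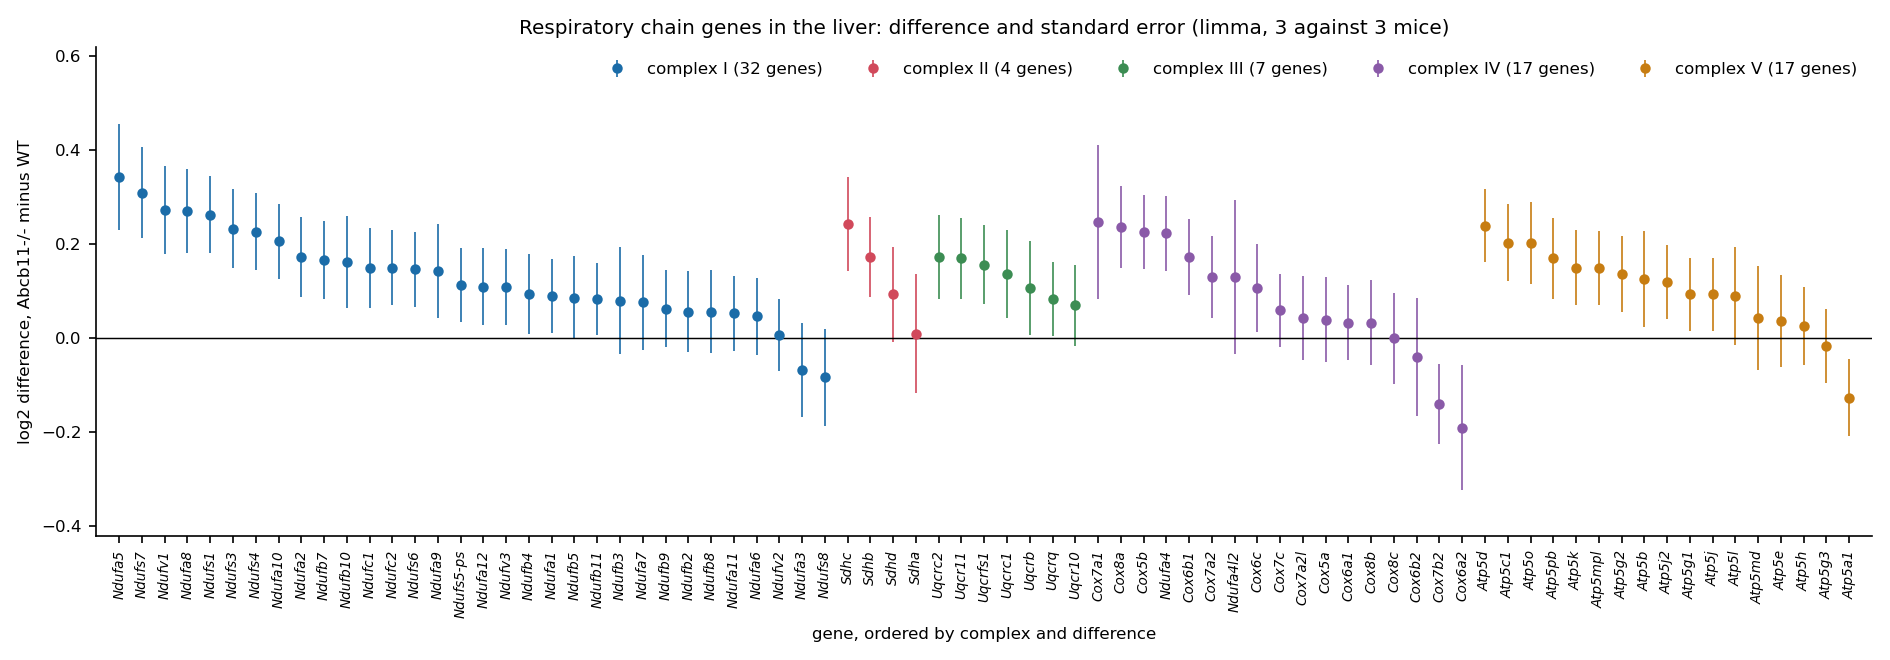
Each point is a respiratory chain gene, placed by complex and by its log2 difference between Abcb11-/- and WT livers (y axis), with its standard error from limma as the bar (3 mice each). Of the 77 points 69 lie above 0 and none exceeds 0.34, and the 4 at or below 0 in complex IV are restricted forms.

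Complex I had a median difference of 0.11, with 30 of 32 genes higher in Abcb11-/- livers (against 50.8% of all genes). Of these, 18 were higher without overlap (against 13.8%) and 8 at an unadjusted p under 0.05 (against 12%). The genes named from here to the end of the liver section were chosen after their values were seen, apart from the Sdh genes and the isoform pairs. Ndufa5, an accessory subunit of the matrix arm, read 10.78, 10.54 and 10.86 in Abcb11-/- livers against 10.30, 10.50 and 10.35 in WT livers, a difference of 0.34 (SE 0.11, limma adjusted p = 0.12). Ndufs7, an iron-sulfur subunit near the ubiquinone site, read 11.17, 11.22 and 11.16 in Abcb11-/- livers against 10.72, 10.92 and 10.98 in WT livers, a difference of 0.31 (SE 0.10, limma adjusted p = 0.11). In both genes the lowest Abcb11-/- liver lay above the highest WT liver, for Ndufa5 by a narrow margin.

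The NADH-oxidising end of complex I gave the same picture. Ndufv1, the flavin-binding subunit, read 11.46, 11.24 and 11.34 in Abcb11-/- livers against 11.12, 11.11 and 10.99 in WT livers (difference 0.27, SE 0.09, limma adjusted p = 0.14). Ndufs1, the largest iron-sulfur subunit, read 10.28, 10.30 and 10.19 in Abcb11-/- livers against 10.04, 9.99 and 9.95 in WT livers (0.26, SE 0.08, limma adjusted p = 0.11). Neither gene overlapped between genotypes. Ndufv2, the partner of Ndufv1 at the electron entry site, averaged 11.39 in both genotypes. Ndufs8 (-0.08) and Ndufa3 (-0.07) were the 2 complex I genes with a lower mean, and in both the Abcb11-/- liver of replicate 1 was the lowest of all 6.

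Complex II, which is also an enzyme of the citric acid cycle, had 4 of 4 genes above 0 by their brightest probe sets, with a median of 0.13. Sdhc, a membrane anchor, read 10.51, 10.60 and 10.38 in Abcb11-/- livers against 10.13, 10.29 and 10.34 in WT livers (0.24, SE 0.10, limma adjusted p = 0.22). Sdhb, the iron-sulfur subunit, read 11.89, 12.05 and 11.96 in Abcb11-/- livers against 11.82, 11.75 and 11.81 in WT livers (0.17, limma adjusted p = 0.30). These genes did not overlap between genotypes. Sdha, the flavoprotein that oxidises succinate, overlapped widely at 11.39, 11.45 and 11.58 in Abcb11-/- livers against 11.70, 11.43 and 11.26 in WT livers (0.01), and the WT livers alone spanned more than the Abcb11-/- livers. The next brightest Sdha probe set, with a liver mean of 11.30 against 11.47, had a difference of -0.15. Sdhd, the other anchor, read 7.49, 7.26 and 7.41 in Abcb11-/- livers against 7.24, 7.42 and 7.22 in WT livers (0.09) and overlapped too.

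Complex III had 7 of 7 genes above 0 by their brightest probe sets, 4 of them without overlap (against 13.8% of all genes). The median was 0.14 and the range 0.07 to 0.17. The lowest value, that of Uqcr10, depended on the probe set. Its dimmer probe sets, with liver means of 8.90 and 9.32, had differences of -0.66 and -0.22. Uqcrc2, a core protein of the matrix side, read 12.09, 12.02 and 12.10 in Abcb11-/- livers against 11.84, 12.01 and 11.84 in WT livers (0.17, limma adjusted p = 0.32). The WT liver of replicate 2 came within 0.01 of the lowest Abcb11-/- liver. Uqcrfs1, the Rieske iron-sulfur protein, read 11.22, 11.27 and 11.14 in Abcb11-/- livers against 11.09, 11.08 and 10.99 in WT livers (0.16, limma adjusted p = 0.35).

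Complex IV, which holds the restricted forms, had the lowest median, 0.06. Those 7 genes were set apart after the values were seen, and they include every complex IV gene at or below 0. Without them, 10 of 10 were above 0 with a median of 0.12, which follows in part from that choice. Of these, 6 were higher without overlap (against 13.8% of all genes). Cox5b, a widespread subunit on the matrix side, read 12.34, 12.31 and 12.37 in Abcb11-/- livers against 12.10, 12.10 and 12.14 in WT livers (0.23, SE 0.08, limma adjusted p = 0.14). Ndufa4 read 12.51, 12.43 and 12.50 in Abcb11-/- livers against 12.28, 12.27 and 12.22 in WT livers (0.22, SE 0.08, limma adjusted p = 0.15). Cox8a, the widespread small membrane subunit whose promoter is shown above, read 11.02, 11.10 and 11.20 in Abcb11-/- livers against 10.88, 10.82 and 10.91 in WT livers (0.24, SE 0.09, limma adjusted p = 0.17). In these 3 genes every Abcb11-/- liver lay above every WT liver, and replicates of Cox5b differed by at most 0.06 within a genotype.

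Among the isoform pairs of complex IV in the liver, the widespread Cox6a1, Cox6b1 and Cox7a2 had differences of 0.03, 0.17 and 0.13, and Cox7a2l of 0.04. The muscle forms Cox6a2 (means 4.20 in Abcb11-/- and 4.39 in WT livers), Cox7a1 (4.63 and 4.39) and Cox8b (3.13 and 3.09) were dim in both genotypes. So were the testis forms Cox6b2 (3.31 and 3.35), Cox7b2 (2.43 and 2.57) and Cox8c (3.62 and 3.62), and Ndufa4l2 (3.53 and 3.40). These 7 genes spanned 2.33 to 4.92 over the 6 livers with a median difference of 0.00, and 0 passed an unadjusted p under 0.05. Median levels of all probe sets on the liver arrays lay at 3.15 to 3.18.

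Complex V had 15 of 17 genes above 0 (against 50.8% of all genes), 10 of them without overlap (against 13.8%), with a median of 0.12. Atp5d, the delta subunit of the rotor's central stalk, was the most even, at 11.94, 11.92 and 11.92 in Abcb11-/- livers against 11.69, 11.67 and 11.70 in WT livers (0.24, SE 0.08, limma adjusted p = 0.11). Atp5c1, the gamma subunit that turns within the catalytic head, read 12.48, 12.42 and 12.49 in Abcb11-/- livers against 12.26, 12.32 and 12.20 in WT livers (0.20, limma adjusted p = 0.20). Atp5a1, the alpha subunit of that same head, had a lower mean, at 11.76, 11.85 and 11.79 in Abcb11-/- livers against 11.99, 11.89 and 11.90 in WT livers (-0.13, SE 0.08, limma adjusted p = 0.45). It was 1 of the 2 genes with every Abcb11-/- liver below every WT liver (2.6% of the 77, against 12.1% of all genes), and the other, Cox7b2, was dim. The catalytic beta subunit Atp5b, at 12.33, 12.26 and 12.25 in Abcb11-/- livers against 12.30, 12.17 and 11.99 in WT livers, overlapped. The 3 genes for the proton-carrying c subunit, which encode the same mature protein, had differences of 0.09 (Atp5g1), 0.14 (Atp5g2) and -0.02 (Atp5g3).

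The call depended on how limma's prior variance was set. With a trended and robust prior, 2 of the 77 genes passed, Atp5d (adjusted p = 0.042) and Cox5b (adjusted p = 0.0474). Of the 38 genes with several probe sets, 29 had all of them on the same side of 0 in the liver, and the widest gap between probe sets of a gene was 0.73, for Uqcr10.

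Of the genes that work beside the complexes a few passed the test, in shares close to those of all genes (4.33% higher and 2.91% lower) for assembly factors and protein synthesis. Of 9 other respiratory chain genes measured that the naming rule missed, 2 rose (22.2%). Cycs, cytochrome c itself, read 11.14, 11.14 and 11.23 in Abcb11-/- livers against 10.74, 10.80 and 10.54 in WT livers (0.48, limma adjusted p = 0.029), with no overlap. Coq7, a hydroxylase of ubiquinone synthesis, read 9.25, 9.36 and 9.58 in Abcb11-/- livers against 8.79, 8.86 and 8.92 in WT livers (0.54, limma adjusted p = 0.025). Of 39 assembly factors 2 rose (5.13%) and 0 fell. Cox17, the copper chaperone of complex IV, read 10.50, 10.40 and 10.56 in Abcb11-/- livers against 9.79, 9.96 and 9.97 in WT livers (0.58, limma adjusted p = 0.012), and Atpaf1, which helps to assemble the head of complex V, had a difference of 0.37 (limma adjusted p = 0.045). The assembly factors as a whole had a median of 0.02, as did the 44 genes of mitochondrial protein synthesis, of which 2 rose (4.55%) and 1 fell (2.27%). Of 16 citric acid cycle genes 1 rose (6.25%), the malate dehydrogenase Mdh2 (0.54, limma adjusted p = 0.035), and their median was 0.04.

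Regulators of mitochondrial genes had a median of the opposite sign. Of 20 measured, 2 fell (against 2.91% of all genes) and 0 rose, and the median was -0.15. Ppara, the nuclear receptor that drives fatty acid oxidation, read 9.27, 9.36 and 9.35 in Abcb11-/- livers against 10.86, 10.74 and 10.72 in WT livers (-1.45, limma adjusted p = 0.000399), and the nuclear receptor Esrrg fell by 0.82 (limma adjusted p = 0.023). Gabpa, whose product binds the ETS core, read 8.02, 8.13 and 8.28 in Abcb11-/- livers against 8.50, 8.43 and 8.14 in WT livers (-0.21, limma adjusted p = 0.39) and overlapped. Nrf1 (-0.20), Tfam (-0.14) and Yy1 (0.01) did not pass the test either.

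Markers of other cells differed between the same livers, where 4.33% of all genes were called higher and 2.91% lower. Of 10 neutrophil markers 3 rose (30%), S100a8, S100a9 and Ngp. The median levels of the 10 were 3.55, 3.92 and 4.20 in Abcb11-/- livers against 3.52, 3.23 and 3.36 in WT livers. Of 6 bile duct markers 2 rose (33.3%), Epcam and Sox9. The median levels of the 6 were 3.62 to 4.03 in Abcb11-/- livers against 3.30 to 3.45 in WT livers. None of 12 macrophage markers passed, and their median levels overlapped at 7.67 to 9.14 in Abcb11-/- livers against 7.91 to 8.49 in WT livers. None of 11 cell cycle genes passed, but their median level was 6.77 in the Abcb11-/- liver of replicate 1, against 4.10 and 4.37 in the other Abcb11-/- livers and 3.62 to 4.49 in WT livers. The part of these cells in the respiratory chain values was not tested. The 10 hepatocyte markers had a median difference of -0.02 with 0 called. Leaving out any 1 liver kept the median of the 77 genes between 0.11 and 0.12.

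In the lung, respiratory chain transcripts lay lower at each later stage. Between E17.5 and E18.5, 63 of the 77 genes had a lower value at E18.5 (81.8%, against 48.8% of all genes) and 14 a higher one (against 51.1%), with a median difference of -0.08 against 0.0063 over all genes. Values were lower with both mothers for 39 genes (50.6%, against 28.3%). No gene passed an adjusted p of 0.05 in limma (0 of 77, where 0.0526% of all genes were called higher and 0.00585% lower), and at an unadjusted p under 0.05 there was 1 higher (Ndufa4l2, against 7.02% of all genes) and 1 lower (Ndufa5, against 5.79%). The fit with stage and mother left 2 residual degrees of freedom.

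From E18.5 to N0 the pattern was more even. At N0, 74 of the 77 genes had a lower value than at E18.5 (96.1%, against 54.4% of all genes), and 68 were lower with both mothers (88.3%, against 34.3%). The median difference was -0.17, against -0.02 over all genes and -0.05 over the 645 genes with a mean log2 value of 10 or more. Single genes again did not pass in limma, with 0 of 77 below an adjusted p of 0.05 (0.0% of all genes in either direction) and 0 at an unadjusted p under 0.05 (against 5.19% of all genes higher and 7.08% lower). The 3 exceptions above 0 (against 45.6% of all genes) were Ndufc2 (0.16), Uqcrfs1 (0.02) and Sdhd (0.01).

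The lower values at N0 spanned all complexes. The median differences from E18.5 to N0 were -0.16 in complex I (31 of 32 genes below 0), -0.13 in complex II (3 of 4), -0.09 in complex III (6 of 7), -0.20 in complex IV (17 of 17) and -0.19 in complex V (17 of 17). Complex V was also below 0 in 17 of 17 genes between E17.5 and E18.5, with a median of -0.14, while the other complexes lay between -0.10 and -0.04 there. With the Abcb11-/- mother that interval held exceptions, since the median deviation of complex II was 0.030 at E17.5 and 0.068 at E18.5, and that of complex IV 0.083 and 0.082. The complexes were not tested against each other.

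On each array the median deviation of the 77 genes from their lung means gave the same order of stages. At E17.5 it was 0.087 with the Abcb11-/- mother and 0.144 with the WT mother, at E18.5 it was 0.047 with the Abcb11-/- mother and -0.015 with the WT mother, and at N0 it was -0.087 with the Abcb11-/- mother and -0.203 with the WT mother. With both mothers the deviation was lower at each later stage, and the span was wider with the WT mother. The step from E17.5 to E18.5 had a median of -0.04 with the Abcb11-/- mother and -0.12 with the WT mother. Below 0 were 44 genes with the Abcb11-/- mother (57.1%, against 45.4% of all genes) and 61 with the WT mother (79.2%, against 51.1%). From E18.5 to N0 the medians were -0.13 with the Abcb11-/- mother and -0.18 with the WT mother. Here 73 genes were below 0 with the Abcb11-/- mother (94.8%, against 54.8% of all genes) and 71 with the WT mother (92.2%, against 52.9%). At a limit of 0.32 on the log2 scale, 1 gene was lower at N0 with the Abcb11-/- mother (1.3%, against 13.9% of all genes) and 19 with the WT mother (24.7%, against 17.3%). The difference between mothers in these steps was not tested.

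**Figure D2:**
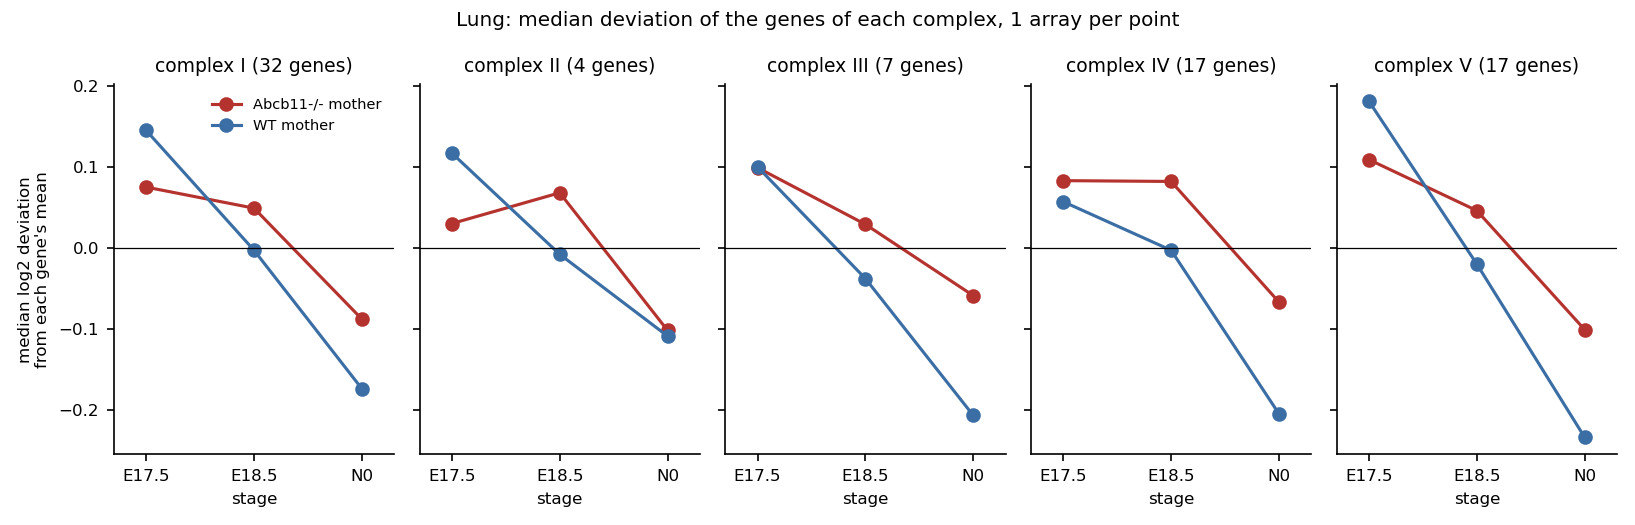
Median log2 deviation of the genes of each complex from their own lung means (y axis) at E17.5, E18.5 and N0 (x axis), with a line for each mother and 1 array per point. In complex V the points for the Abcb11-/- mother run through 0.109, 0.046 and -0.101 and those for the WT mother through 0.181, -0.020 and -0.234, and the other complexes slope the same way over the whole span.

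The WT mother's arrays alone, which leave that array out, gave a complex V median of -0.18 with 17 of 17 genes below 0 between E17.5 and E18.5, a Ndufa5 difference of -0.68 and a Ndufa4l2 difference of 0.96. Single arrays set the size of these steps. Without the array of the Abcb11-/- mother at E17.5, which carried liver and muscle transcripts, the median from E17.5 to E18.5 was -0.15, and without that of the WT mother at E17.5 it was -0.02. From E18.5 to N0 the median stayed between -0.21 and -0.10 over all such omissions, and it was smallest in size without the array of the WT mother at N0.

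Single members show the values behind the difference between E18.5 and N0. Ndufc1, a small accessory subunit of complex I, read 10.30 at E17.5, 10.29 at E18.5 and 10.08 at N0 with the Abcb11-/- mother, and 10.34, 10.23 and 9.76 with the WT mother, a difference of -0.34 at N0 (SE 0.15, limma adjusted p = 0.43). Ndufs3, a subunit of the matrix arm, had a difference of -0.30 (limma adjusted p = 0.46). Cox6b1, the widespread intermembrane-space subunit of complex IV, read 11.24, 11.25 and 11.04 with the Abcb11-/- mother and 11.35, 11.26 and 10.88 with the WT mother (-0.30, SE 0.14, limma adjusted p = 0.47). In Ndufc1 and Cox6b1 both mothers' arrays were lowest at N0, and the WT mother's array was the lower. These genes were named after their values were seen.

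Ndufa5 differed in timing. It read 8.67 at E17.5, 8.43 at E18.5 and 8.28 at N0 with the Abcb11-/- mother, and 8.75, 8.06 and 8.15 with the WT mother. Its difference was -0.46 between E17.5 and E18.5 (SE 0.16, limma adjusted p = 0.33) and -0.03 between E18.5 and N0. In complex II, Sdhb lay between 9.49 and 9.64 on all lung arrays. Sdha, in contrast, read 9.43, 9.45 and 9.31 over the stages with the Abcb11-/- mother and 9.64, 9.46 and 9.13 with the WT mother. Sdhc read 8.80, 8.89 and 8.63 with the Abcb11-/- mother and 8.91, 8.78 and 8.59 with the WT mother, and Sdhd lay between 5.91 and 6.17 on all arrays.

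The c subunit genes of complex V, which share a mature protein, read alike in order of stages. Atp5g1 read 8.27, 8.10 and 7.83 over the stages with the Abcb11-/- mother and 8.34, 7.89 and 7.60 with the WT mother. Atp5g2 read 10.40, 10.25 and 10.19 with the Abcb11-/- mother and 10.67, 10.21 and 9.89 with the WT mother, and Atp5g3 read 11.80, 11.76 and 11.59 with the Abcb11-/- mother and 11.80, 11.67 and 11.52 with the WT mother. Each was lower at each later stage with both mothers, while no single stage difference passed the test.

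**Figure D3:**
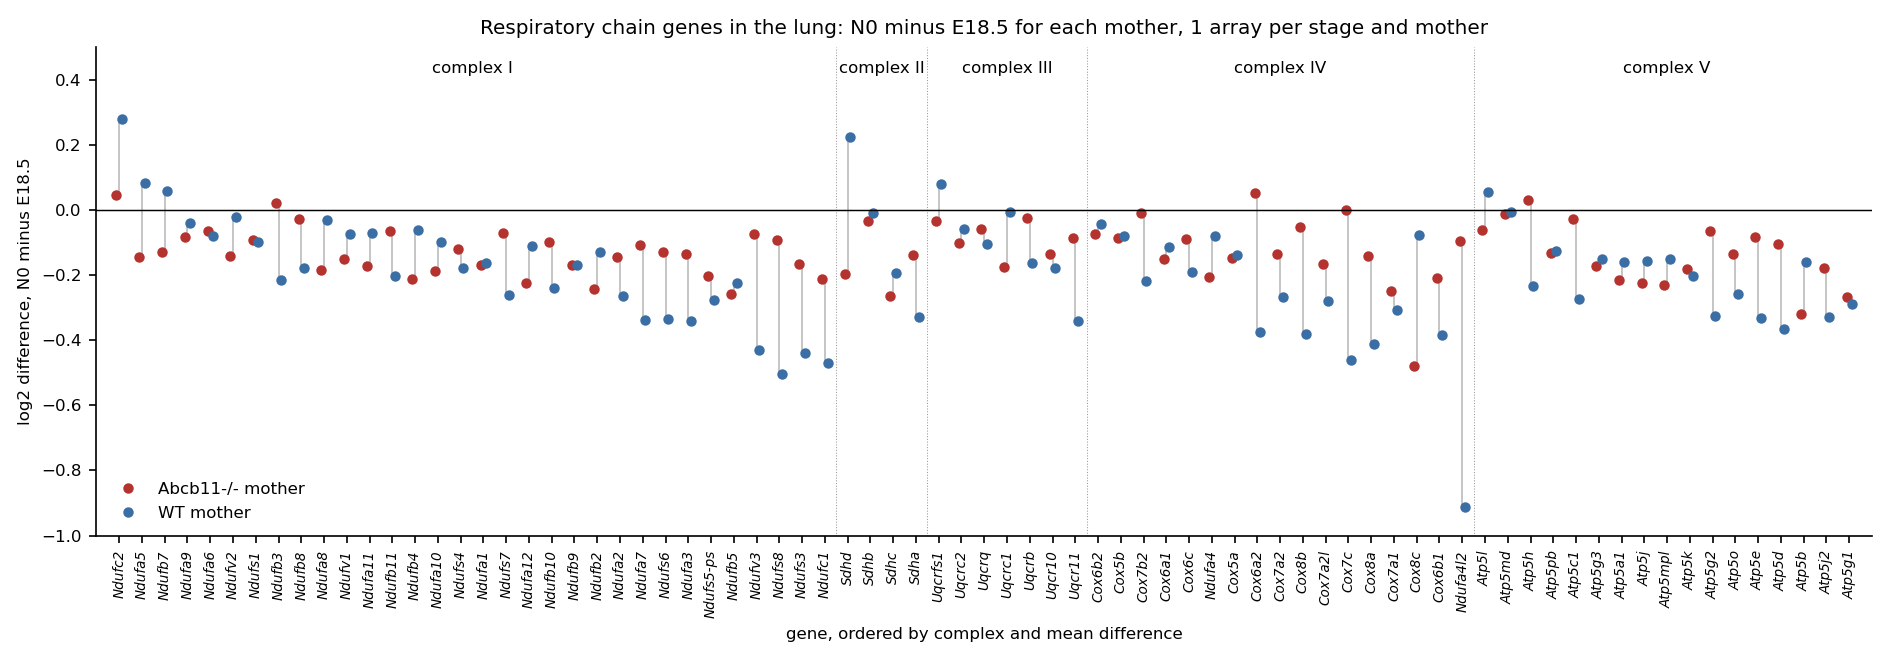
Log2 difference between N0 and E18.5 for each of the 77 genes (y axis), ordered by complex and mean difference, with a point for the Abcb11-/- mother and a point for the WT mother, each from 1 array per stage. Of the 77 genes 68 have both points below 0, and the lowest point is -0.48 (Cox8c) for the Abcb11-/- mother and -0.91 (Ndufa4l2) for the WT mother.

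Of 5 related gene lists, 4 also had lower medians at N0 and the remaining list lay near 0. From E18.5 to N0 the medians were -0.17 for 39 assembly factors, -0.15 for 44 genes of mitochondrial protein synthesis, -0.11 for 16 citric acid cycle genes and -0.25 for 20 regulators of mitochondrial biogenesis. The 9 respiratory chain genes that the naming rule missed had a median of -0.02, with 4 of 9 above 0, which was -0.14 with the Abcb11-/- mother and 0.11 (5 of 9 above 0) with the WT mother. The 11 cell cycle genes had medians of -1.13 from E17.5 to E18.5 and -0.71 from E18.5 to N0, with 11 of 11 below 0 at both intervals (-1.47 between E17.5 and E18.5 with the WT mother alone), and 14 heart muscle markers had 0.67 and -0.45. The median deviation of the heart muscle markers from their lung means was -0.021 at E17.5 and 0.396 at E18.5 with the WT mother. With the Abcb11-/- mother it was -0.622 and 0.402. No gene of these lists passed the test at either interval. Their part in the respiratory chain values was not tested.

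Between mothers the differences were smaller and less even. Over the 3 stages the median difference between the offspring of Abcb11-/- and WT mothers was 0.04, against -0.0025 over all genes, and 0 of 77 genes passed an adjusted p of 0.05 in limma (0.0% of all genes). At an unadjusted p under 0.05, 4 genes were higher with the Abcb11-/- mother (against 2.76% of all genes) and 0 lower (against 2.31%). At all 3 stages, 19 genes were higher with the Abcb11-/- mother (24.7%, against 13.2% of all genes) and 0 were lower (against 12.7%). Taking the mean of the stages, 52 genes were higher with the Abcb11-/- mother (67.5%, against 49.2%). Without the E17.5 arrays the median was 0.08, and without those of N0 it was -0.0017.

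The sign of the median differed between stages, but at E17.5 the median lay close to that over all genes. The Abcb11-/- mother's array at E17.5 was also the one that carried liver and muscle transcripts. At E17.5, 31 of 77 genes were higher with the Abcb11-/- mother (40.3%, against 45.4% of all genes) and 46 lower (against 54.6%), and the median was -0.04. At E18.5 56 were higher (72.7%, against 53% of all genes) and 21 lower (against 46.9%), with a median of 0.06, and at N0 61 were higher (79.2%, against 51.7%) and 16 lower (against 48.3%), with a median of 0.09. The medians over all genes were -0.03, 0.01 and 0.01. These counts rest on the brightest probe sets. Of the 38 genes with several, 21 at E17.5, 22 at E18.5 and 25 at N0 had all of them on the same side of 0. The widest gaps between probe sets of a gene were 0.59, 0.56 and 0.57. At N0 complex V was highest at 0.16, followed by complex III at 0.11, complex IV at 0.10, complex I at 0.09 and complex II at 0.04, with 1 array behind each side and no test of any single stage. Members at least 1.5-fold higher with the Abcb11-/- mother were 1 at E17.5 (against 3.47% of all genes), 1 at E18.5 (2.13%) and 4 at N0 (4.16%), and 0 were lower at any stage (3.55%, 1.26% and 2.88% of all genes).

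All of these were restricted forms of complex IV. Cox6a2, the form of the VIa subunit in heart and skeletal muscle, read 4.86 at E17.5, 5.14 at E18.5 and 5.19 at N0 with the Abcb11-/- mother, and 4.45, 4.50 and 4.13 with the WT mother. Its difference over the stages was 0.71 (SE 0.15), with an adjusted p of 0.93 in limma. Cox7a1, the VIIa form of heart and skeletal muscle, read 4.35, 4.37 and 4.12 with the Abcb11-/- mother and 3.95, 3.83 and 3.52 with the WT mother (0.51, SE 0.11, limma adjusted p = 0.93). In both genes the Abcb11-/- mother's array was the higher at each stage, as for 13.2% of all genes. They are described here because they passed 1.5-fold between these same arrays, so this is no separate test.

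Cox8b, the muscle form of subunit VIII, did likewise at 3.99, 4.08 and 4.03 over the stages with the Abcb11-/- mother and 3.57, 3.57 and 3.19 with the WT mother (0.59, SE 0.13, limma adjusted p = 0.93). Ndufa4l2, a paralogue of Ndufa4 known as a target of hypoxia-inducible factor, was brighter and less regular. It read 8.33, 8.54 and 8.45 with the Abcb11-/- mother and 7.50, 8.47 and 7.56 with the WT mother (0.60, SE 0.19, limma adjusted p = 0.93). The mothers were thus nearly alike at E18.5 and apart by 0.82 at E17.5 and 0.89 at N0, and Ndufa4l2 also had the largest stage differences of the 77 genes, 0.59 from E17.5 to E18.5 and -0.50 from E18.5 to N0. The other 3 were dim, between 3.19 and 5.19 where the median of all probe sets lay at 3.63 to 3.68. Among the 72 members with a mean log2 value of 6 or more, Ndufa4l2 was the 1 gene at least 1.5-fold higher at E17.5 and at N0, against 199 and 306 of all 7222 genes of that brightness.

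Their widespread counterparts had differences of either sign. Cox6a1 read 11.92, 11.96 and 11.81 over the stages with the Abcb11-/- mother and 12.19, 11.94 and 11.82 with the WT mother. Cox7a2 read 11.28, 11.22 and 11.08 with the Abcb11-/- mother and 11.42, 11.26 and 11.00 with the WT mother, and Ndufa4 read 10.85, 10.73 and 10.53 with the Abcb11-/- mother and 10.96, 10.64 and 10.56 with the WT mother. In all 3 genes the sign of the difference changed between stages. Cox8a read 9.65, 9.77 and 9.62 with the Abcb11-/- mother and 9.76, 9.61 and 9.20 with the WT mother. Its sign changed as well, with differences of -0.11 at E17.5, 0.16 at E18.5 and 0.43 at N0.

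**Figure D4:**
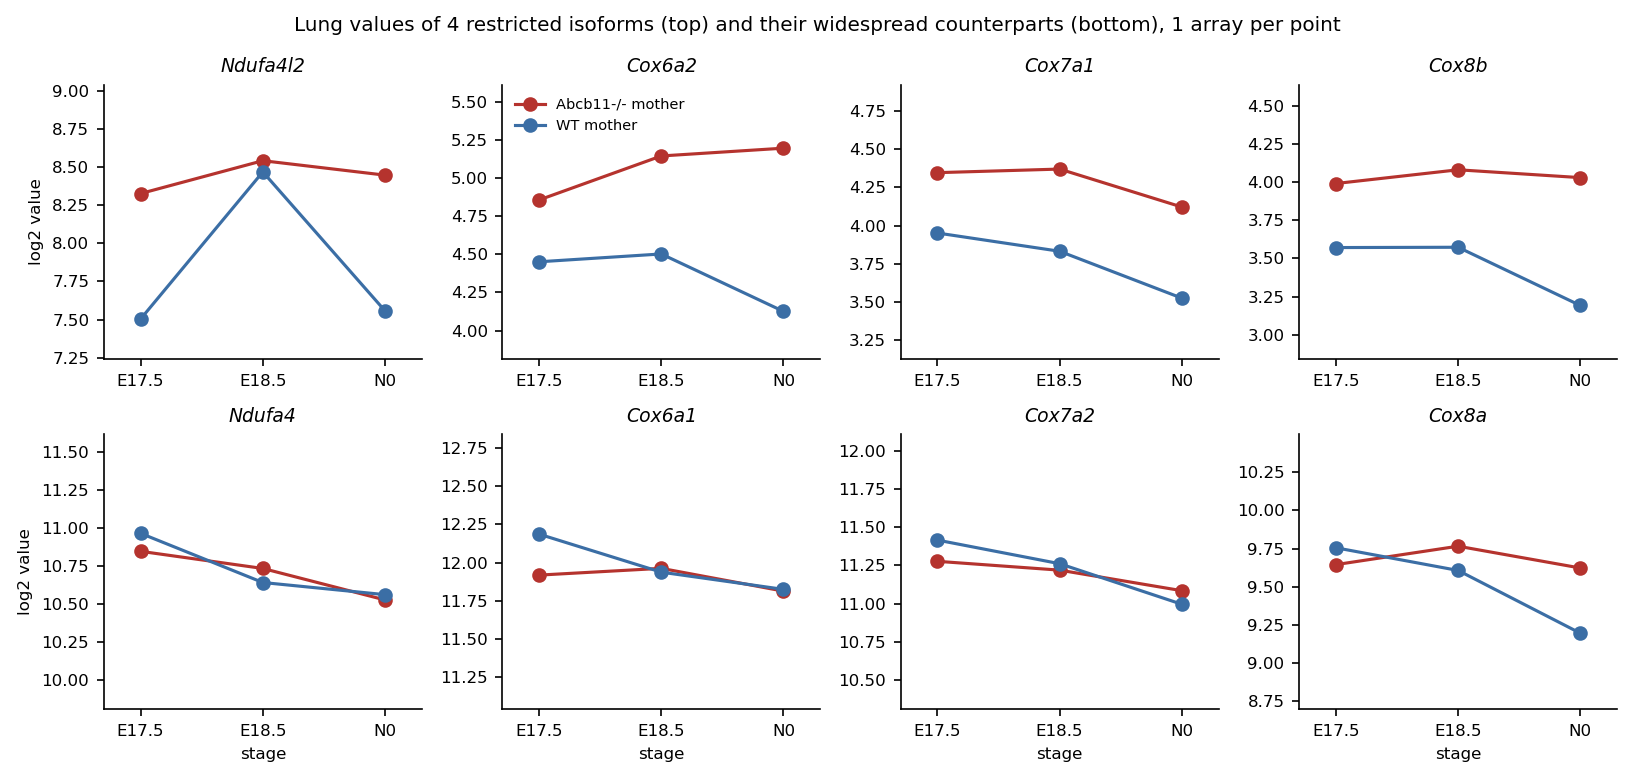
Log2 values of the restricted forms Cox6a2, Cox7a1, Cox8b and Ndufa4l2 (top row) and of their widespread counterparts Cox6a1, Cox7a2, Cox8a and Ndufa4 (bottom row) at E17.5, E18.5 and N0, with a line for each mother and 1 array per point. Every panel spans 1.8 log2 units. In the top row the Abcb11-/- mother's points lie above the WT mother's at every stage, by 1.07 for Cox6a2 at N0, and in the bottom row the lines cross.

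Testis forms gave no such difference. Cox6b2 read 8.13, 7.90 and 7.82 over the stages with the Abcb11-/- mother and 8.08, 7.92 and 7.88 with the WT mother. Cox7b2 lay between 2.79 and 3.01 on all lung arrays and Cox8c between 3.43 and 3.95. Cox7a2l read 10.13, 10.20 and 10.03 with the Abcb11-/- mother and 10.07, 10.21 and 9.93 with the WT mother, and Ndufs5-ps read 9.43, 9.35 and 9.15 with the Abcb11-/- mother and 9.38, 9.30 and 9.02 with the WT mother. Cox4i2, the lung form of subunit IV that the naming rule missed, went the other way at 3.69, 3.59 and 4.06 with the Abcb11-/- mother and 4.34, 4.18 and 4.43 with the WT mother. Without the 7 restricted forms, a set left out after the values were seen, the medians between mothers were -0.07 at E17.5, 0.05 at E18.5 and 0.09 at N0.

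Heart and skeletal muscle markers differed between the same arrays. The median level of 14 heart muscle markers was 5.05 with the Abcb11-/- mother and 6.31 with the WT mother at E17.5, 6.03 with each at E18.5, and 5.89 with the Abcb11-/- mother and 4.75 with the WT mother at N0. At N0, where Cox6a2 differed most, 14 of 14 were higher with the Abcb11-/- mother (against 51.7% of all genes) and 9 at least 1.5-fold (against 4.16%). At that limit, 1 was higher and 8 lower at E17.5 (against 3.47% and 3.55% of all genes). The median level of 17 skeletal muscle markers was 7.62 with the Abcb11-/- mother and 3.61 with the WT mother at E17.5, 4.37 with the Abcb11-/- mother and 5.23 with the WT mother at E18.5, and 4.07 with the Abcb11-/- mother and 4.28 with the WT mother at N0. At E18.5, 2 heart muscle markers were at least 1.5-fold higher with the Abcb11-/- mother and 0 lower, and 0 skeletal muscle markers were higher and 5 lower. The shares over all genes at E18.5 were 2.13% higher and 1.26% lower. Of 7 brown fat markers, Ucp1 (2.70 to 3.16), Cidea (2.87 to 3.32) and Adipoq (2.57 to 2.81) were dim on all lung arrays. The part of muscle in the values of the restricted forms was not tested.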

How the data were processed

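RNA from 6 livers and 6 lung samples was measured on Affymetrix HT MG-430 PM arrays. The deposited tables hold log2 intensities that the authors made with RMA in Partek 6.5, which the labels name without role or order; the probe set annotation was the platform's, with symbols updated through gene identifiers (28898 of 45037 probe sets had 1 symbol, 551 several and 15588 none). The tissues may have been normalized separately, so levels were not tested across them. RMA brings the arrays of a table to a shared distribution, so each difference is relative to the other genes of an array.

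For each of 17097 genes the probe set with the highest mean in the tissue was kept. Models were fitted to all genes with limma 3.58.1 in R 4.3.3 (lmFit, eBayes): genotype in the liver (4 residual degrees of freedom), stage and mother in the lung (2 residual degrees of freedom). The p-values were adjusted over all genes by Benjamini-Hochberg, and a gene was called at an adjusted p under 0.05. Lung stages of a mother share arrays between intervals. Differences between mothers at 1 stage rest on 1 array each and were described at 1.5-fold with no test. The labels number the liver mice and say nothing of litters or cages, so p-values measure only the spread between these samples.

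Members and lists were chosen with earlier results of these data known. Genes were to be named by calls in each complex, by a 1.5-fold difference between mothers, and by fixed isoform pairs and the Sdh genes; as no member was called, others were named after their values were seen. Each result was recomputed with a gene's probe sets averaged, with dim genes (mean log2 value under 6) left out, with quantile or median scaling, with limma's trended and robust prior, with replicate numbers as a block, with the methods' t-test, without the mother term, at other fold limits and without each array in turn. The fits were tested on simulated data. Promoter windows came from RefSeq (GRCm38.p6).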

Additional observations from a re-analysis of the deposited data

Results flagged for a closer look

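Both patterns below concern gene lists beside the respiratory chain, and they were marked because the difference between mothers had opposite signs at E17.5 and N0. The median log2 difference of 14 heart muscle markers between the offspring of Abcb11-/- and WT mothers was -0.72 at E17.5, 0.05 at E18.5 (0.0459) and 0.71 at N0. That of 11 cell cycle genes was -0.63 at E17.5, 0.13 at E18.5 and 0.42 at N0. The respiratory chain genes had -0.04, 0.06 and 0.09 at the same stages. Each value compares 1 array with 1 array, and the difference between stages was not tested.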

How the results depend on the processing

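No respiratory chain gene was called in the liver under the mean of all probe sets, a mean log2 value of at least 6, quantile normalization, median centring or the omission of any liver. The trended and robust prior called 2 higher (Atp5d and Cox5b). The methods' t-test gave 37 higher and 1 lower at 0.05 (all genes 1685 and 1444), and after Benjamini-Hochberg 1 higher, Atp5d (adjusted p = 0.0275; all genes 26 and 23). The liver median was 0.12 with median centring and 0.11 to 0.12 (0.1067 to 0.1217) without 1 liver. Over all genes, leaving out 1 liver gave 315 to 888 called higher and 177 to 621 lower, the fewest without WT replicate 2. Same-numbered livers did not deviate together (correlations -0.045, -0.041 and -0.135). With so few mice per genotype, these correlations cannot decide whether the numbers pair the mice, and the labels do not say. The fit with the replicate block called 429 genes higher and 242 lower and 0 of the respiratory chain genes.

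In the lung no respiratory chain gene was called at any interval under these settings. From E17.5 to E18.5, the genes called higher and lower over all genes were 36 and 9 at a mean of at least 6, 130 and 67 with the trended prior, 0 and 0 with quantile normalization, 0 lower with the mean of probe sets, and 0 to 134 higher and 0 to 173 lower without 1 array. The median there was -0.15 to -0.02 (-0.1494 to -0.0195) without 1 array. From E18.5 to N0 they were 12 and 2 with the mean of probe sets, 13 and 5 at a mean of at least 6, 62 and 25 with the trended prior, 14 and 4 with no mother term, and 0 to 24 higher and 0 to 11 lower without 1 array, and the median was -0.21 to -0.10 (-0.208 to -0.101). Between mothers over the stages 1 gene was called higher at a mean of at least 6 and 1 with the trended prior. At 0.32 on the log2 scale, 4 respiratory chain genes were higher (5.19%, against 10.2% of all genes) and 1 lower (1.3%, against 13.5%) at E17.5, 4 higher at E18.5 (5.19%, against 10.3%) and 7 higher at N0 (9.09%, against 13.6%), each a lower share than over all genes. With a mean of at least 6, or with the brighter array at 7 or above, 0 were 1.5-fold higher at E18.5 and 1 at N0. Where values moved, the cause was not tested. Dim forms near the median of all probe sets have little signal over background.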
